A study of Mus musculus with 71 samples.

Results

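Calcium stored inside a cell is released through channels in the membrane of the endoplasmic reticulum and returned to the store, or expelled from the cell, by pumps. The 10 genes described here encode the ryanodine receptors (Ryr1, Ryr2, Ryr3), the inositol trisphosphate receptors (Itpr1, Itpr2, Itpr3), pumps of the endoplasmic reticulum known as SERCA (Atp2a2, Atp2a3) and pumps of the plasma membrane known as PMCA (Atp2b1, Atp2b2). They are 10 of the 57010 genes in the count table, and all 10 were among the 30141 genes tested. The set was chosen by the result for Ryr1, which ranked first by p among the 14264 genes with a higher level at ORM+12 h than at HC zt15 in HFS ad lib mice, and the other 9 were taken from the same gene families. The values of that contrast are therefore given below as a description, without a test.

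Ryanodine receptors open when calcium binds to their cytosolic side, so that a small entry of calcium is amplified by release from the store. Inositol trisphosphate receptors open when that messenger is made by a phospholipase C downstream of receptors for glutamate, acetylcholine and other signals. In hippocampal neurons both kinds of channel shape the calcium signals of dendrites and spines that bear on synaptic plasticity, while SERCA and PMCA pumps bring the cytosol back to its resting calcium level.

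RNA was isolated from the hippocampus of male wild-type C57BL/6J mice by pS6-TRAP, in which ribosomes carrying phosphorylated S6 are pulled down with an antibody and their mRNA is sequenced. From 3 weeks of age and for 12 weeks the mice ate normal chow freely (NC ad lib), a high-fat sucrose diet freely (HFS ad lib), or the high-fat sucrose diet with food limited to the active phase during the last 4 weeks (HFS TRF). On each diet, mice were taken from the home cage (HC) at zeitgeber time 3 (HC zt3) or 15 (HC zt15), or at 1 h (ORM+1 h) or 12 h (ORM+12 h) after 10 min of object recognition memory training. HC zt3 and ORM+1 h mice formed the first experiment (36 mice) and HC zt15 and ORM+12 h mice the second (35 mice), so the time of day cannot be told apart from the experiment. Each of the 12 groups held 6 mice except HFS TRF HC zt15, which held 5. Ribosomes were pulled down from all cells of the tissue, and a level therefore mixes the cell types with active S6. Total counts per mouse ranged from 34.7 to 62.8 M reads (median 54.0 M). Levels are given as CPM, the counts of a gene per M counts of the mouse after scaling by TMM factors. The markers of the labelled tissue were present, with summed levels of 6 neuron markers, of which Camk2a was the most abundant and none was at 0, of 10602 to 15077 CPM over the 71 mice.

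Levels can be compared between genes only per length, and for that CPM was divided by the kilobases of merged exons. These lengths join the exons of all annotated transcripts, with 30.3 kb for Ryr2, 21.8 kb for Ryr1 and 19.0 kb for Ryr3. The order and the shares below therefore depend on the annotation. On this scale Atp2a2, the SERCA pump of most cells, had the highest level (median over 71 mice 50.6 CPM per kb). It was followed by the PMCA genes Atp2b1 (33.8) and Atp2b2 (23.6) and by Itpr1 (18.6). Ryr2 (5.01) and Ryr3 (2.12) were lower, and Itpr2 (0.582), Atp2a3 (0.270), Ryr1 (0.243) and Itpr3 (0.0440) lower still. This order of neighbours held in 71 of 71 mice for Atp2a2 over Atp2b1, Itpr1 over Ryr2, Ryr2 over Ryr3, Ryr3 over Itpr2 and Ryr1 over Itpr3. Atp2b1 was above Atp2b2 in 70 mice and Atp2b2 above Itpr1 in 68. Itpr2 was above Atp2a3 in 56 mice and Atp2a3 above Ryr1 in 37, so those last neighbours had no fixed order.

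**Figure D1:**
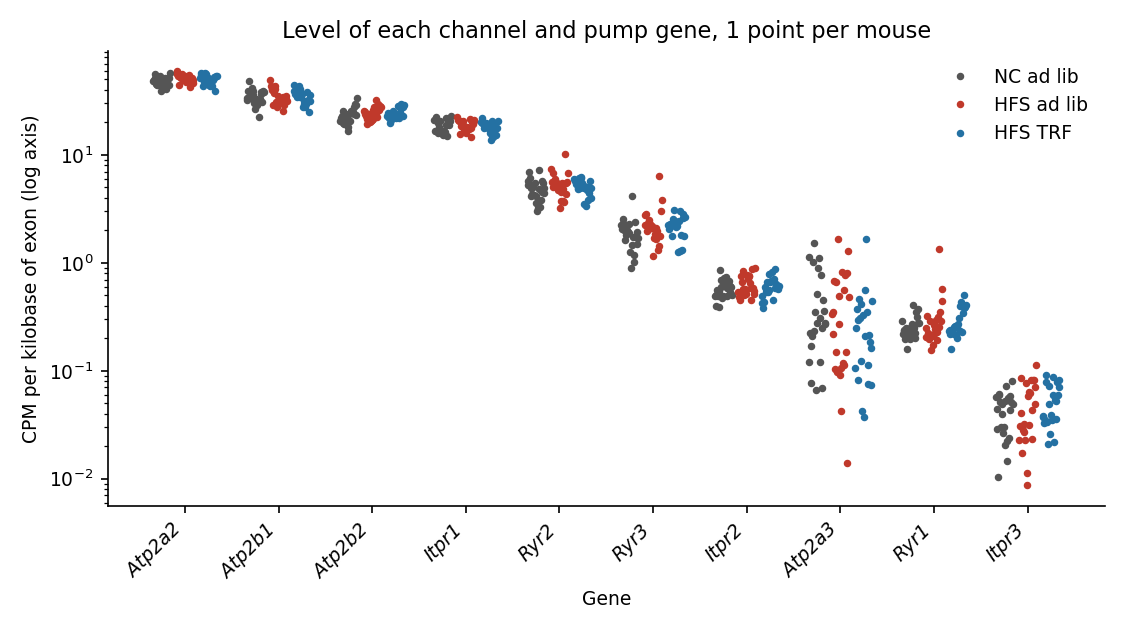
Level of the 10 channel and pump genes in each of the 71 mice, in CPM per kilobase of merged exons on a log axis, coloured by diet.

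The shares that follow are of the genes of the set alone. Of the summed level per kb of the ryanodine receptors, Ryr2 made up a median of 69.0%, Ryr3 27.8% and Ryr1 3.39%. Itpr1 made up 96.7% of the 3 inositol trisphosphate receptors, Itpr2 2.99% and Itpr3 0.246%. Atp2a2 made up 99.5% of the 2 SERCA genes, and Atp2b1 58.7% and Atp2b2 41.3% of the 2 PMCA genes. Over the 12 groups the mean level of a gene differed least for Atp2a2, from 555.5 CPM (SD 30.4, n = 5) in HFS TRF HC zt15 to 656.1 CPM (SD 63.4, n = 6) in HFS ad lib HC zt3. It differed most for Atp2a3, from 1.03 CPM (SD 0.728, n = 6) in HFS TRF ORM+12 h to 3.32 CPM (SD 2.96, n = 6) in NC ad lib ORM+1 h.

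The comparison of trained with home cage mice at about the same time of day asks which genes differ after training. Home cage mice did not enter the arena, so learning cannot be told apart from exposure to the arena and the objects. In the comparisons that did not choose the set, no channel or pump gene was called. A gene was called at an adjusted p under 0.05 by the quasi-likelihood test of edgeR, adjusted by the Benjamini-Hochberg method over all genes tested. At ORM+1 h against HC zt3, 0 of 10 genes were called in NC ad lib mice (5.73% of all genes), 0 of 10 in HFS ad lib mice (1.23%) and 0 of 10 in HFS TRF mice (2.87%). At an unadjusted p under 0.05 there were 1, 0 and 1, and the DESeq2 Wald test called 0, 0 and 0. At ORM+12 h against HC zt15, edgeR called 0 of 10 genes in NC ad lib mice (0.209% of all genes) and 0 of 10 in HFS TRF mice (2.46%), with 2 and 2 at an unadjusted p under 0.05 and 0 and 0 by DESeq2.

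The home cage mice alone show how a level differs between the light phase and the dark phase, together with any difference between the experiments. Between these times of day, 4 genes were called on at least 1 diet. At HC zt15 against HC zt3, Atp2b1 was lower and Itpr2 higher in NC ad lib mice (2 of 10 genes called, against 11.7% of all genes). In HFS ad lib mice Atp2b1 and Ryr2 were lower (2 of 9 genes, against 10.4%), and in HFS TRF mice Atp2b1 and Itpr1 were lower and Itpr2 higher (3 of 10 genes, against 14.2%). Atp2b1 was the gene called on all 3 diets. Whether a difference between the times of day itself differed between diets was not tested.

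Between diets, no channel or pump gene was called. HFS ad lib against NC ad lib gave 0 of 10 genes at HC zt3 (0% of all genes), 0 of 10 at ORM+1 h (0%), 0 of 9 at HC zt15 (0.063%) and 0 of 9 at ORM+12 h (2.27%) by edgeR's test. At an unadjusted p under 0.05 there were 0, 0, 0 and 2, and DESeq2 called 0, 0, 0 and 1. HFS TRF against HFS ad lib gave 0 of 10 at HC zt3 (0%), 0 of 10 at ORM+1 h (0%), 0 of 9 at HC zt15 (0%) and 0 of 9 at ORM+12 h (0.00664%). There, edgeR gave 0, 0, 0 and 2 at an unadjusted p under 0.05, and DESeq2 called 0 in each.

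The difference between diets in the response to training was tested as an interaction. For ORM+1 h, 0 of 10 genes were called for HFS ad lib against NC ad lib (0% of all genes) and 0 of 10 for HFS TRF against HFS ad lib (0%). For ORM+12 h, 0 of 9 were called for HFS ad lib against NC ad lib (0.106%) and 0 of 9 for HFS TRF against HFS ad lib (0%). With edgeR 0, 0, 2 and 1 had an unadjusted p under 0.05, and DESeq2 called 0 in each. The counts of 9 leave out Ryr1, whose mice at HFS ad lib ORM+12 h and HC zt15 chose the set.

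Ryr1 (ENSMUSG00000030592, chromosome 7 of GRCm39 from 28702769 to 28824604, minus strand) encodes the ryanodine receptor best known from skeletal muscle. In HFS ad lib mice it ranged from 4.16 to 6.81 CPM at HC zt15 (median 5.58) and from 5.60 to 29.5 CPM at ORM+12 h (median 8.70). The highest value was that of replicate 2, and the next were 12.4 CPM in replicate 6 and 9.74 CPM in replicate 5. Of the 6 trained mice, 4 were above every home cage mouse and 2 were within their range. The log2 fold change was 1.09, and 0.58 without replicate 2.

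The other trained mice of the second experiment give the context for that value. Ryr1 ranged from 4.86 to 8.14 CPM in NC ad lib ORM+12 h mice (median 6.49) and from 4.98 to 11.1 CPM in HFS TRF ORM+12 h mice (median 8.40). It ranged from 4.43 to 8.80 CPM in NC ad lib HC zt15 mice (median 5.45), and the 5 HFS TRF HC zt15 mice had 5.87, 6.71, 8.65, 5.08 and 9.39 CPM. Trained and home cage mice overlapped on both diets, with log2 fold changes of 0.19 for NC ad lib (adjusted p = 0.730 by the quasi-likelihood test of edgeR) and 0.20 in HFS TRF mice (adjusted p = 0.667). From NC ad lib to HFS ad lib mice at ORM+12 h the log2 difference in Ryr1 was 0.84, and 0.34 without HFS ad lib ORM+12 h replicate 2. From HFS ad lib to HFS TRF mice at ORM+12 h it was -0.53, and -0.03 without that mouse.

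In the first experiment Ryr1 stayed between 3.43 and 6.97 CPM in every mouse. Medians at HC zt3 and ORM+1 h were 5.13 and 4.46 CPM in NC ad lib, 4.70 and 4.61 CPM in HFS ad lib, and 4.92 and 5.19 CPM in HFS TRF mice. All 3 pairs of groups overlapped, and the log2 fold changes were -0.20, -0.15 and 0.12 (adjusted p by edgeR 0.704, 0.881 and 0.932).

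Between the times of day in HFS TRF mice, Ryr1 ranged from 3.47 to 5.16 CPM at HC zt3 (median 4.92) and had the 5 values above at HC zt15. Of those 5 mice, 4 were above every HC zt3 mouse, and replicate 4 was within their range. The log2 fold change of 0.60 was not called by edgeR (adjusted p = 0.060), while DESeq2 gave an adjusted p of 0.0384, and over 7 alternatives that keep all mice the value ran from 0.0253 to 0.0695. Without HFS TRF HC zt15 replicate 4 it was called by edgeR (log2 fold change 0.70, adjusted p = 0.0382). In NC ad lib mice the same comparison gave 0.16 (adjusted p = 0.707 by edgeR), and 0.01 without NC ad lib HC zt15 replicate 4.

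Ryr2 (ENSMUSG00000021313, chromosome 13 from 11567988 to 12121870, minus strand) encodes the ryanodine receptor of heart muscle and the most abundant one in these samples. In HFS ad lib mice it ranged from 153.1 to 226.0 CPM at HC zt3 (median 175.3) and from 98.1 to 167.2 CPM at HC zt15 (median 125.0). Of the 6 HC zt15 mice, 5 were below every HC zt3 mouse, and replicate 4 was within their range. Ryr2 fell by 0.51 on the log2 scale (standard error 0.16, adjusted p = 0.026 by the quasi-likelihood test of edgeR), and over 7 alternatives the adjusted p ran from 0.0131 to 0.0335.

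That call for Ryr2 in HFS ad lib mice was lost without any 1 of 5 mice, with log2 fold changes that stayed between -0.47 and -0.44. It was not made without HC zt3 replicate 1 (log2 fold change -0.44, adjusted p = 0.0879 by edgeR) or replicate 3 (-0.47, 0.0604). It was also not made without HC zt15 replicate 1 (-0.44, 0.0846), replicate 3 (-0.47, 0.0625) or replicate 5 (-0.47, 0.0607).

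On NC ad lib, Ryr2 ranged from 125.5 to 210.0 CPM at HC zt3 (median 166.1) and from 91.3 to 220.4 CPM at HC zt15 (median 104.2). At HC zt15, 4 mice were below every HC zt3 mouse, and replicate 4, the mouse with the lowest total count (34.7 M), was above every one. The log2 fold change of -0.40 was not called by edgeR (adjusted p = 0.089, and 0.0354 to 0.183 over 7 alternatives). Without HC zt15 replicate 4 it was -0.63 (adjusted p = 0.00203), and without HC zt3 replicate 6 it was -0.47 (adjusted p = 0.0488), and both were called. In HFS TRF mice, Ryr2 ranged from 146.7 to 179.4 CPM at HC zt3 (median 161.8), and the HC zt15 mice had 150.4, 106.2, 151.3, 102.7 and 152.8 CPM. Replicates 2 and 4 were low and the others within the HC zt3 range, and the log2 fold change of -0.29 was not called (adjusted p = 0.252 by edgeR).

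At ORM+12 h in HFS ad lib mice Ryr2 ranged from 111.6 to 309.8 CPM (median 167.7), and its log2 difference from HC zt15 was 0.49, or 0.28 without replicate 2. Against NC ad lib ORM+12 h mice, which ranged from 115.0 to 172.4 CPM (median 144.1), it was 0.32 (adjusted p = 0.227 by edgeR), and 0.10 without HFS ad lib ORM+12 h replicate 2. At ORM+1 h the log2 fold changes of Ryr2 were -0.22 on NC ad lib, -0.22 on HFS ad lib, and 0.09 with HFS TRF (adjusted p by edgeR 0.505, 0.582 and 0.926), with overlapping groups on each diet.

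Ryr3 (ENSMUSG00000057378, chromosome 2 from 112461699 to 113047441, minus strand) encodes the ryanodine receptor first described in brain. It ranged from 25.0 to 119.6 CPM in HFS ad lib ORM+12 h mice (median 45.6) and from 22.6 to 45.6 CPM in NC ad lib ORM+12 h mice (median 32.6). In the HFS ad lib group replicates 2, 6 and 5 were above every NC ad lib mouse and replicates 1, 3 and 4 were among them. The log2 difference of 0.76 was not called by edgeR (adjusted p = 0.073), and DESeq2 gave an adjusted p of 0.0335. Over 7 alternatives the adjusted p ran from 0.0335 to 0.239. The difference was 0.39 without HFS ad lib ORM+12 h replicate 2. It was called by edgeR without NC ad lib ORM+12 h replicate 2 (0.88, adjusted p = 0.0478), HFS ad lib ORM+12 h replicate 1 (0.91, 0.0490) or HFS ad lib ORM+12 h replicate 4 (0.87, 0.0238). Against HFS ad lib HC zt15 mice, which ranged from 22.0 to 40.2 CPM (median 33.5), the difference was 0.76, and 0.39 without replicate 2.

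Between the times of day Ryr3 was not called on any diet, with log2 fold changes of -0.28 on NC ad lib, -0.47 on HFS ad lib, and -0.05 with HFS TRF (adjusted p by edgeR 0.509, 0.215 and 0.962). NC ad lib mice ranged from 30.7 to 47.9 CPM at HC zt3 (median 40.8) and from 17.0 to 79.6 CPM at HC zt15 (median 25.8). Replicate 4 again stood above every HC zt3 mouse while 4 others were below every one, and without it the log2 fold change was -0.74 and was called (adjusted p = 0.0192 by edgeR). On HFS ad lib, 5 of 6 HC zt15 mice were below every HC zt3 mouse, and fitting the compared groups alone called the difference (adjusted p = 0.0298, in a range of 0.0298 to 0.244 over 7 alternatives).

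The 3 ryanodine receptor genes had the same highest mouse in 5 of the 12 groups and not in the other 7. In HFS ad lib ORM+12 h, replicates 2, 6 and 5 held the highest values of each in that order, and replicate 1 held the lowest. In NC ad lib HC zt15, replicate 4 was the highest for each. Over the 71 mice the correlation of log2 CPM with Ryr1 was 0.46 for Ryr3 and 0.31 for Ryr2, against 0.54 for Atp2b2, 0.34 for Itpr2, 0.01 for Itpr1, -0.02 for Atp2a3, -0.11 for Atp2a2 and -0.16 for Atp2b1. These correlations describe mice that share 12 groups and include the mice that chose Ryr1. With HFS ad lib ORM+12 h replicate 2 and NC ad lib HC zt15 replicate 4 both left out, the log2 fold changes at HC zt15 against HC zt3 in NC ad lib mice were -0.63 for Ryr2 and -0.74 for Ryr3. These 2 mice were picked after seeing the data for their high ryanodine receptor values, so that step is given as a description only.

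**Figure D2:**
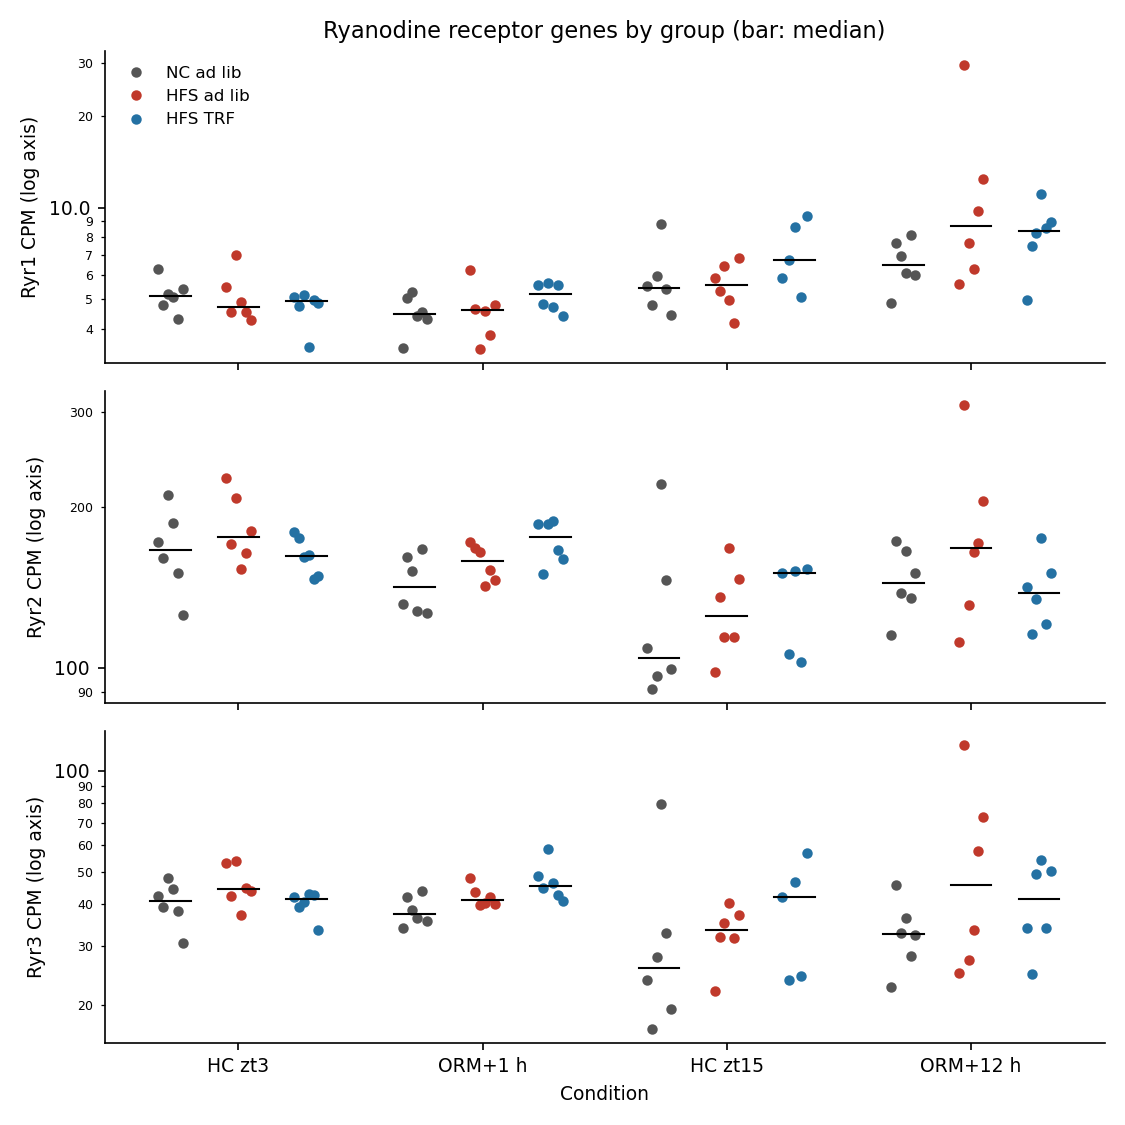
CPM of Ryr1, Ryr2 and Ryr3 in each mouse of the 12 groups on log axes, with the median of each group as a bar.

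Genes most like Ryr1, among 14698 with a mean of at least 1 CPM, included Trank1 (r = 0.82 over 71 mice), the histone methyltransferase Kmt2d (0.79), the cytoskeletal linker Plec (0.78) and the long noncoding RNA Firre (0.77). These genes were picked by a correlation that includes HFS ad lib ORM+12 h replicate 2, so their high values in that mouse follow in part from the choice. It was the highest mouse of its group for each, with 105.5 CPM of Trank1 (group median 59.3), 152.8 CPM of Kmt2d (101.2), 85.2 CPM of Plec (55.9) and 13.7 CPM of Firre (7.01). NC ad lib HC zt15 replicate 4 was likewise the highest of its group for these 4 genes. HFS ad lib ORM+12 h replicate 2 was also the highest of its group for 4 RNAs known to stay largely in the nucleus, a list added after seeing the data, with 42.0 CPM of Malat1 (group median 27.4), 208.3 CPM of Meg3 (141.6), 56.6 CPM of Miat (36.6) and 124.4 CPM of Snhg11 (69.8). NC ad lib HC zt15 replicate 4 was not the highest of its group for any of these 4, and replicate 3 was. The 5 skeletal muscle markers, of which Acta1 was the most abundant and none was at 0 in every mouse, summed to 9.98 CPM in HFS ad lib ORM+12 h replicate 2, against 8.59 to 11.2 CPM in that group (median 9.79). The correlation of that list with Ryr1 was 0.11 over 71 mice, which include the mice that chose Ryr1. Ryr1 had r = 0.56 with 4 dentate gyrus markers, 0.42 with 4 endothelial cell markers, 0.41 with 3 oligodendrocyte precursor markers and 0.40 with 4 CA3 markers. The dentate gyrus markers, of which Prox1 was the most abundant and none was at 0, summed to 163.6 to 228.6 CPM in HFS ad lib HC zt15 mice (median 179.9) and 199.5 to 257.7 CPM in HFS ad lib ORM+12 h mice (median 219.1), with 218.2 CPM in replicate 2. The part of these RNAs and markers in the Ryr1 values was not tested.

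Itpr1 (ENSMUSG00000030102, chromosome 6 from 108190048 to 108528070, plus strand) encodes the main inositol trisphosphate receptor of neurons. In HFS TRF mice it ranged from 323.8 to 403.1 CPM at HC zt3 (median 364.1), and the HC zt15 mice had 291.6, 251.8, 373.4, 271.9 and 268.7 CPM. At HC zt15, 4 of 5 mice were below every HC zt3 mouse, and replicate 3 was within their range. Itpr1 fell by 0.31 on the log2 scale (standard error 0.10, adjusted p = 0.021 by the quasi-likelihood test of edgeR, and 0.00649 to 0.0385 over 7 alternatives). The call was not made without HC zt3 replicate 2 (log2 fold change -0.28, adjusted p = 0.0617) or HC zt15 replicates 2 (-0.26, 0.0818), 4 (-0.29, 0.0628) or 5 (-0.29, 0.0619).

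In the other diets Itpr1 was not called between the times of day. It ranged from 292.9 to 410.9 CPM at HC zt3 and 281.8 to 401.2 CPM at HC zt15 in NC ad lib mice (medians 344.3 and 303.1), or -0.10 as log2 fold change (adjusted p = 0.521 by edgeR). On HFS ad lib it ranged from 286.2 to 412.3 CPM and 292.1 to 391.0 CPM (medians 379.3 and 322.3), or -0.14 (adjusted p = 0.346). The groups overlapped on both diets. After training the log2 fold changes of Itpr1 lay between -0.10 and -0.07 at ORM+1 h on the 3 diets, and were 0.15 on NC ad lib and 0.14 with HFS TRF at ORM+12 h (adjusted p by edgeR 0.398 and 0.399).

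Itpr2 (ENSMUSG00000030287, chromosome 6 from 146009797 to 146403721, minus strand) encodes the inositol trisphosphate receptor known as the main one of astrocytes. In NC ad lib mice it ranged from 6.26 to 8.999 CPM at HC zt3 (median 7.99) and from 8.01 to 12.1 CPM at HC zt15 (median 10.8). At HC zt15, 5 of 6 mice were above every HC zt3 mouse, and replicate 5 was within their range. Itpr2 rose by 0.45 on the log2 scale (standard error 0.15, adjusted p = 0.038 by the quasi-likelihood test of edgeR, and 0.0275 to 0.0455 over 7 alternatives). In HFS TRF mice it ranged from 6.21 to 9.73 CPM at HC zt3 (median 7.47), and the HC zt15 mice had 10.9, 10.9, 13.3, 7.28 and 11.6 CPM. There, 4 of 5 mice were above every HC zt3 mouse, while replicate 4 was below the HC zt3 median, and Itpr2 rose by 0.46 on the log2 scale (standard error 0.16, adjusted p = 0.040, and 0.0234 to 0.0611 over 7 alternatives).

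For HFS ad lib mice, Itpr2 ranged from 7.26 to 12.3 CPM at HC zt3 (median 8.21) and from 9.51 to 12.5 CPM at HC zt15 (median 11.8). All 6 HC zt15 mice were above the HC zt3 median and 1 was above every HC zt3 mouse, and the log2 fold change of 0.33 was not called (adjusted p = 0.156 by edgeR). Both calls on the other diets lay near the threshold of 0.05 and were lost without any 1 of several mice. In those fits the log2 fold changes stayed between 0.37 and 0.47. Without HFS ad lib ORM+12 h replicate 2 and NC ad lib HC zt15 replicate 4, the NC ad lib log2 fold change was 0.41. As a description, this was the 1 call of the 10 genes lost in that step, while 3 were gained. For NC ad lib, Itpr2 was not called without HC zt3 replicate 2 (log2 fold change 0.41, adjusted p = 0.0955 by edgeR), 5 (0.47, 0.0513) or 6 (0.40, 0.0943), or without HC zt15 replicate 1 (0.42, 0.0820), 2 (0.43, 0.0772), 3 (0.46, 0.0536) or 4 (0.41, 0.0816). With HFS TRF it was not called without HC zt3 replicate 1 (0.46, 0.0597), 2 (0.43, 0.0878), 3 (0.40, 0.104) or 4 (0.43, 0.0854), or without HC zt15 replicate 1 (0.46, 0.0659), 2 (0.45, 0.0633), 3 (0.37, 0.142) or 5 (0.43, 0.0828).

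After training Itpr2 had an unadjusted p under 0.05 on 2 diets but was not called. At ORM+1 h it ranged from 7.62 to 14.0 CPM in NC ad lib mice (median 9.25) and from 8.72 to 12.8 CPM in HFS TRF mice (median 9.93). The groups overlapped with HC zt3, and the log2 fold changes were 0.37 and 0.37 (adjusted p by edgeR 0.159 and 0.221). On HFS ad lib it was 0.08 (adjusted p = 0.938).

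Astrocyte markers moved with Itpr2. Of 6 astrocyte markers, edgeR called 6 higher at HC zt15 than at HC zt3 in NC ad lib mice (median log2 fold change 1.15), 2 in HFS ad lib mice (0.61) and 5 in HFS TRF mice (1.19). At ORM+1 h against HC zt3 it called 6 higher on NC ad lib (1.47), 0 on HFS ad lib (0.63), and 5 with HFS TRF (1.16). Slc1a2 was the most abundant of them and none was at 0. Their summed level ranged from 883.4 to 1121 CPM at HC zt3 (median 904.1) and from 1009 to 2837 CPM at HC zt15 (median 2208) in NC ad lib mice. The sum ranged in HFS ad lib mice from 707.3 to 2191 CPM (median 882.5) and from 1497 to 2857 CPM (median 2018), and in HFS TRF mice from 665.5 to 1526 CPM (median 912.6), with 2684, 2190.1, 2777, 1859 and 2058 CPM at HC zt15. HFS TRF HC zt15 replicate 4 was the lowest of its group both in Itpr2 and in these markers, and replicate 3 the highest in both. Over the 71 mice the correlation of log2 Itpr2 with the log2 summed level was 0.74, against 0.59 for 3 oligodendrocyte precursor markers and 0.41 for 5 myelinating oligodendrocyte markers. Fewer cells of a type and less RNA per cell cannot be told apart in these samples, and the part of the astrocyte markers in the Itpr2 result was not tested.

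Itpr3 (ENSMUSG00000042644, chromosome 17 from 27275971 to 27343866, plus strand) encodes an inositol trisphosphate receptor known from epithelial and secretory cells. It had 6 to 77 counts per mouse, or 0.105 to 1.35 CPM, so small differences were not detectable at this depth. Its group means ran from 0.357 CPM (SD 0.296, n = 6) in HFS ad lib ORM+1 h to 0.880 CPM (SD 0.299, n = 6) in HFS ad lib ORM+12 h mice. Its log2 fold changes between the times of day were -0.13 on NC ad lib, 0.51 on HFS ad lib, and -0.02 with HFS TRF (adjusted p by edgeR 0.924, 0.475 and 1.00). With each mouse left out they ran from -0.39 to 0.03, from 0.35 to 0.93 and from -0.29 to 0.21.

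Atp2a2 (ENSMUSG00000029467, chromosome 5 from 122591575 to 122640903, minus strand) encodes the SERCA pump that refills the store in neurons and most other cells. It ranged from 478.3 to 724.6 CPM over the 71 mice, the narrowest range of the 10 genes, with a ratio of 1.52 between the highest and the lowest mouse. Between the times of day its log2 fold changes were -0.08 on NC ad lib, -0.10 on HFS ad lib, and -0.16 with HFS TRF (adjusted p by edgeR 0.559, 0.436 and 0.156), with overlapping groups on each diet. After training they lay between -0.04 and 0.06 at ORM+1 h, and at ORM+12 h they were 0.08 on NC ad lib and 0.14 with HFS TRF (adjusted p 0.611 and 0.296).

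Atp2a3 (ENSMUSG00000020788, chromosome 11 from 72851990 to 72883870, plus strand) encodes a SERCA pump known from blood, endothelial and epithelial cells and from Purkinje neurons. It varied more than any other of the 10 genes, from 0.0744 to 8.93 CPM (4 to 495 counts), a ratio of 120.1 between the highest and the lowest mouse. The 5 highest were HFS ad lib ORM+1 h replicate 3 (8.93 CPM), HFS TRF HC zt15 replicate 3 (8.85 CPM), NC ad lib ORM+1 h replicate 3 (8.17 CPM), HFS ad lib ORM+12 h replicate 5 (6.82 CPM) and NC ad lib HC zt3 replicate 1 (6.08 CPM). These mice fell in 5 different groups, and in no comparison was Atp2a3 called. Its largest tested log2 difference between a trained and a home cage group was -1.58 at ORM+12 h in HFS TRF mice (standard error 0.76, adjusted p = 0.215 by edgeR), where home cage mice had 2.98, 1.13, 8.85, 1.88 and 0.606 CPM and trained mice 0.398 to 2.38 CPM (median 0.931).

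Choroid plexus and striatum markers moved with Atp2a3, and cerebellum and thalamus markers did not. The summed level of 6 choroid plexus markers, of which Ttr was the most abundant and none was at 0, was 9518, 18614, 2977, 16548 and 3023 CPM in those 5 mice. The next mouse, NC ad lib HC zt15 replicate 3, had 5.95 CPM of Atp2a3 with a lower sum of 594.0 CPM, and NC ad lib ORM+12 h replicate 3 had 2.45 CPM with 259.0 CPM. In the 4 mice with the lowest Atp2a3 (0.226, 0.225, 0.199 and 0.0744 CPM) it was 170.7, 300.4, 135.9 and 178.6 CPM. The correlation over 71 mice was 0.78 with the choroid plexus markers and 0.73 with 4 striatum markers, of which Ppp1r1b was the most abundant. It was 0.06 with 4 cerebellum markers, 0.09 with 4 thalamus markers, -0.42 with 6 neuron markers and -0.46 with 5 skeletal muscle markers. None of the choroid plexus or striatum markers was called in any comparison. The part of these markers in the Atp2a3 values was not tested.

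**Figure D3:**
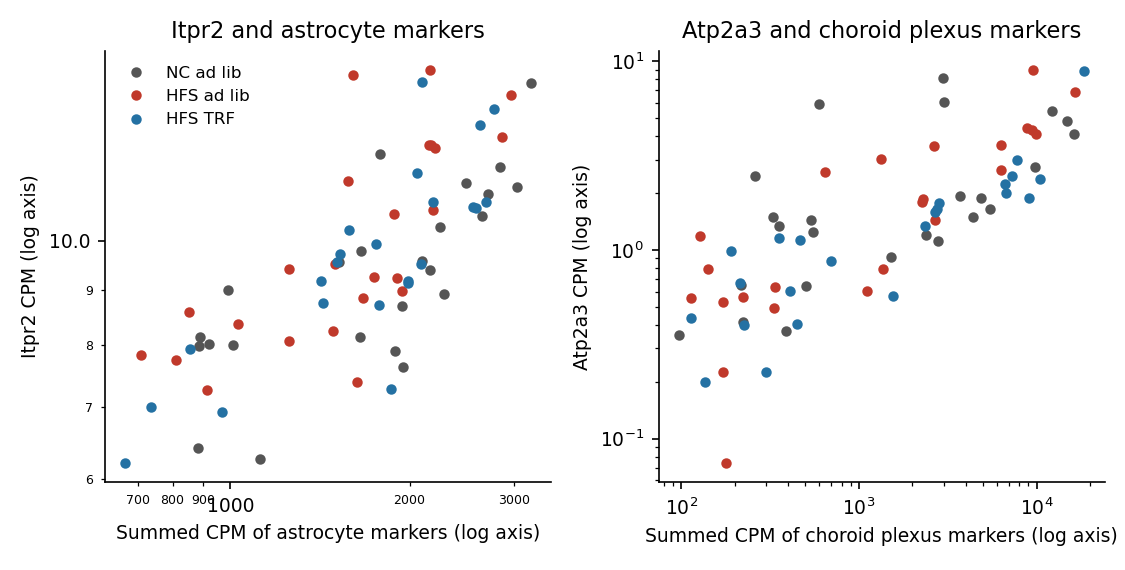
Itpr2 against the summed level of 6 astrocyte markers, and Atp2a3 against that of 6 choroid plexus markers, in each of the 71 mice on log axes.

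Atp2b1 (ENSMUSG00000019943, chromosome 10 from 98750268 to 98862488, plus strand) encodes a widely expressed PMCA pump that expels calcium across the plasma membrane. In NC ad lib mice it ranged from 532.5 to 806.0 CPM at HC zt3 (median 568.7) and from 369.3 to 545.1 CPM at HC zt15 (median 496.5). At HC zt15, 5 of 6 mice were below every HC zt3 mouse, and replicate 1 was within their range. Atp2b1 fell by 0.33 on the log2 scale (standard error 0.10, adjusted p = 0.023 by the quasi-likelihood test of edgeR, and 0.00922 to 0.0535 over 7 alternatives). It was not called without HC zt3 replicate 4, the highest mouse (log2 fold change -0.24, adjusted p = 0.143), without HC zt15 replicate 6, the lowest (-0.27, 0.102), or in a fit of the compared groups alone (-0.34, 0.0535).

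On HFS ad lib, Atp2b1 ranged from 481.0 to 823.8 CPM at HC zt3 (median 671.9) and from 508.7 to 567.6 CPM at HC zt15 (median 524.0). All 6 HC zt15 mice were below the HC zt3 median, but none was below HC zt3 replicate 5, which had the value of 481.0 CPM. Atp2b1 fell by 0.33 (standard error 0.10, adjusted p = 0.031 by edgeR, and 0.0175 to 0.0760 over 7 alternatives). It was not called without HC zt3 replicate 1 (-0.26, adjusted p = 0.132), 2 (-0.30, 0.0714) or 4 (-0.32, 0.0508), without HC zt15 replicate 2 (-0.32, 0.0567), 3 (-0.32, 0.0519) or 5 (-0.32, 0.0505), or in a fit of the compared groups alone (-0.31, 0.0760).

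With HFS TRF, Atp2b1 ranged from 569.2 to 728.1 CPM at HC zt3 (median 607.8), and the HC zt15 mice had 456.5, 491.1, 528.4, 464.4 and 486.3 CPM. All 5 HC zt15 mice were below every HC zt3 mouse. Atp2b1 fell by 0.36 (standard error 0.11, adjusted p = 0.018 by edgeR, and 0.00267 to 0.0308 over 7 alternatives). Without HC zt3 replicate 2 it was not called (-0.31, adjusted p = 0.0657).

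After training Atp2b1 was not called. On NC ad lib it ranged from 506.5 to 647.5 CPM at ORM+12 h (median 616.7), and 5 of 6 trained mice were above every HC zt15 mouse. The log2 fold change of 0.29 had an adjusted p of 0.184 by edgeR, and in HFS TRF mice it was 0.14 (adjusted p = 0.461). At ORM+1 h it was -0.09 on NC ad lib, -0.21 on HFS ad lib, and 0.02 with HFS TRF (adjusted p 0.726, 0.363 and 1.00).

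**Figure D4:**
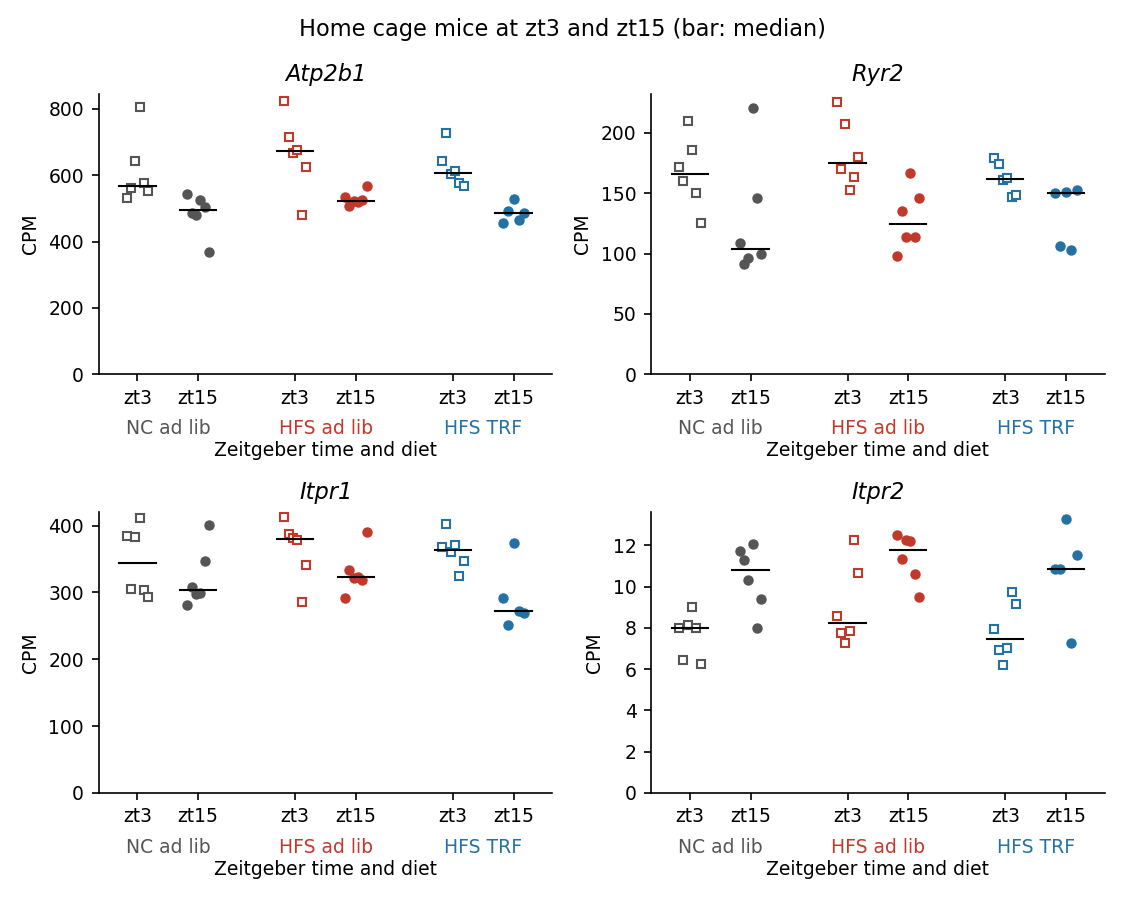
CPM of Atp2b1, Ryr2, Itpr1 and Itpr2 in home cage mice at zt3 (open squares) and zt15 (filled circles) on each diet, with the median of each group as a bar.

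Atp2b2 (ENSMUSG00000030302, chromosome 6 from 113720766 to 114021022, minus strand) encodes a PMCA pump of neurons and of the hair cells of the inner ear. At ORM+12 h it ranged from 371.9 to 534.2 CPM in NC ad lib mice (median 451.6), against 322.5 to 400.0 CPM at HC zt15 (median 387.0). Of 6 trained mice, 4 were above every home cage mouse, and the log2 fold change of 0.23 was not called (adjusted p = 0.199 by edgeR, and 0.0478 to 0.394 over 7 alternatives). With HFS TRF it was 0.19 (adjusted p = 0.190). Between the times of day Atp2b2 had log2 fold changes of 0.14 on NC ad lib, 0.17 on HFS ad lib, and 0.09 with HFS TRF (adjusted p 0.301, 0.196 and 0.552), where Atp2b1 was called lower. The HFS ad lib value was called in 1 of 7 alternatives, with the replicate number as a block within a task (adjusted p = 0.0481, in a range of 0.0481 to 0.272). The share of Atp2b1 in the level per kb of both genes ranged from 47.3% to 66.0% over the mice. Over the 71 mice Atp2b2 had r = 0.76 with 4 CA3 markers, 0.68 with 4 dentate gyrus markers and 0.59 with 6 neuron markers. In NC ad lib mice at ORM+12 h against HC zt15, 0 of these markers were called, with median log2 fold changes of 0.20, 0.35 and 0.14. The CA3 markers, of which Nptx1 was the most abundant and none was at 0, summed to 836.5 to 1136 CPM at HC zt15 (median 1087) and 1033 to 1391 CPM at ORM+12 h (median 1224). The dentate gyrus sums were 153.3 to 276.0 CPM (median 200.3) and 207.9 to 296.1 CPM (median 258.2), and the neuron sums 11024 to 13672 CPM (median 12817) and 13660 to 14883 CPM (median 14163). The part of these markers in the Atp2b2 values was not tested.

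Markers of CA1, the output field of the hippocampus, moved with Atp2b1 and Itpr1, and less with Ryr2. Over the 71 mice the correlation of log2 levels with their sum was 0.77 for Atp2b1, 0.59 for Itpr1 and 0.36 for Ryr2, and it was 0.53 for Atp2a2, which was not called. Ryr2 had -0.43 with oligodendrocyte precursor markers and -0.37 with myelinating oligodendrocyte markers. Of 4 CA1 markers, edgeR called 3 lower at HC zt15 than at HC zt3 on NC ad lib (median log2 fold change -0.42), 2 on HFS ad lib (-0.31), and 3 with HFS TRF (-0.47). Their summed level, of which Mpped1 was the most abundant and none was at 0, had medians of 696.4 and 548.1 CPM at HC zt3 and HC zt15 in NC ad lib, and 779.5 and 572.0 CPM in HFS ad lib mice. The HFS TRF median was 741.8 CPM at HC zt3, and the HC zt15 mice had 462.9, 528.9, 606.9, 472.9 and 550.0 CPM. Of 4 dentate gyrus markers 3, 1 and 0 were called higher on the 3 diets. Of 5 microglia markers, of which Csf1r was the most abundant and none was at 0, 3 were called higher on HFS ad lib (median log2 fold change 0.83) and 0 on the other diets. Their sum was 327.5 CPM in HFS ad lib HC zt15 replicate 2 and 43.2 to 48.5 CPM in the other 5 mice of that group. The nuclear RNA Malat1 was called higher at HC zt15 on each diet (log2 fold changes 1.26, 1.58 and 1.91, adjusted p by edgeR 1.4e-05, 7e-08 and 8.1e-10). Meg3 (0.97, 0.87 and 1.41) and Miat (1.01, 0.63 and 1.24) were called on each diet too, and Snhg11 (0.51, 0.57 and 0.94) was called on HFS ad lib and HFS TRF. The part of these RNAs in the results for the pumps and channels was not tested.

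A promoter window of Atp2b1, the gene called on all 3 diets between the times of day, is shown as it stands in RefSeq, with the E-box in capitals. An E-box (CACGTG, which reads the same on both strands) is the core of the sequence bound by the clock proteins CLOCK and BMAL1. Of the 10 genes 7 matched the RefSeq promoter table (GRCm38.p6), with 10 windows of 250 bases before and 50 bases after a start, and Ryr3, Itpr1 and Atp2a2 did not. E-boxes stood in 2 of those 10 windows, those of Atp2b1 and Itpr3, and in 7.15% of 32851 promoters. The cyclic AMP response element TGACGTCA, searched on both strands, stood in 0 of the 10 windows and in 1.79% of all promoters. The other of the 2 Atp2b1 windows, chr10:98914902-98915201, has none. In the window with the match, chr10:98914392-98914691 on the plus strand, the E-box begins at base 259 of 300, just after the start. A match describes the letters of the window and is no evidence of binding.
Atp2b1 promoter: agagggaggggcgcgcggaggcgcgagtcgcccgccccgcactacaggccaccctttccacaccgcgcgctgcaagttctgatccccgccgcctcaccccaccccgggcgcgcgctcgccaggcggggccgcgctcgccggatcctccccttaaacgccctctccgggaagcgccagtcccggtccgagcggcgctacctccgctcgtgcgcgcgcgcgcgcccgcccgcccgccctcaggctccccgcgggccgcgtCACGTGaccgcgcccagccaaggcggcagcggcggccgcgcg

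Other genes of calcium handling were described by a list of 67 genes, all of them tested. The shares over all genes given beside it include genes with as few as 10 counts in total. The list was not matched to all genes by level, so a higher share is not read as a trait of calcium handling. At ORM+1 h against HC zt3, edgeR called 14 of 67 (13 higher, 1 lower) in NC ad lib mice, where 5.73% of all genes were called, 1 in HFS ad lib mice (1.23%) and 2 in HFS TRF mice (2.87%), all 3 of these higher. In that NC ad lib comparison the 6 astrocyte markers given above were all called higher, and 2 of 6 neuron markers were called lower (median log2 fold change -0.21). The sum of the neuron markers ranged from 12040 to 14030 CPM at HC zt3 (median 12994) and from 10602 to 11974 CPM at ORM+1 h (median 10737), and the part of these markers in the counts of the list was not tested. At ORM+12 h against HC zt15 edgeR called 0 of 67 in NC ad lib mice (0.209% of all genes) and 6, or 8.96%, in HFS TRF mice (4 higher, 2 lower, against 2.46% of all genes). In that HFS TRF comparison 1 neuron, 1 dentate gyrus and 1 myelinating oligodendrocyte marker were called higher. The 6 astrocyte markers had a median log2 fold change of -0.55, with 0 called. The dentate gyrus sums were 156.8 to 210 CPM at HC zt15 and 225.9 to 269.9 CPM at ORM+12 h. The myelinating oligodendrocyte sums were 660.4 to 867.7 CPM and 909 to 1097 CPM. The part of these markers was not tested. Between the times of day edgeR called 12, or 17.9%, in NC ad lib mice (9 higher, 3 lower, against 11.7% of all genes). It called 4, or 5.97%, in HFS ad lib mice (1 higher, 3 lower, against 10.4%) and 16, or 23.9%, in HFS TRF mice (11 higher, 5 lower, against 14.2%). For HFS ad lib against NC ad lib at ORM+12 h it called 2, or 2.99% (both higher, against 2.27% of all genes). HFS ad lib ORM+12 h replicate 2 and NC ad lib HC zt15 replicate 4 were picked after seeing the data. As a description only, the count in that comparison without both mice was 0. Between the times of day it was then 13 on NC ad lib, 4 on HFS ad lib, and 17 with HFS TRF. The median log2 fold change of the list lay between -0.03 and 0.08 over the comparisons.

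Homer1, a scaffold that ties inositol trisphosphate receptors to glutamate receptors, had among the smallest adjusted p of the list after training and was called on each diet. It ranged from 211.8 to 272.3 CPM at HC zt3 and from 331.2 to 644.1 CPM at ORM+1 h in NC ad lib mice (medians 255.0 and 444.9). HFS ad lib mice ranged from 225.3 to 337.2 and from 413.4 to 714.2 CPM (medians 256.6 and 502.7), and in HFS TRF mice from 171.8 to 315.7 and from 379.5 to 611.4 CPM (medians 250.1 and 512.4). The trained and home cage mice did not overlap on any diet, and the log2 fold changes were 0.88, 1.04 and 0.99 (adjusted p by edgeR 0.00026, 6.5e-05 and 9.3e-05). At ORM+12 h it was 0.00 on NC ad lib and -0.22 with HFS TRF (adjusted p 1.00 and 0.497). The counts are per gene and do not tell the transcripts of Homer1 apart.

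In NC ad lib mice at ORM+1 h, Tpcn1, a channel of endosomes and lysosomes, rose by 0.76 on the log2 scale (adjusted p = 7.5e-05 by edgeR, higher than the home cage median in 6 of 6 mice), and Slc8b1, the mitochondrial sodium calcium exchanger, by 1.29 (adjusted p = 0.00037, 6 of 6 mice). Neither was called in HFS ad lib mice (0.42 and 0.50, adjusted p 0.119 and 0.372) or HFS TRF mice (0.43 and 0.77, adjusted p 0.070 and 0.089), and the interaction called 0 genes of the list. At ORM+12 h on NC ad lib, Slc8b1 had a log2 fold change of -1.01 that was not called (adjusted p = 0.061), with 6 of 6 trained mice below the home cage median and no overlap of the groups. Jph4, which ties the endoplasmic reticulum to the plasma membrane, fell by 0.29 in NC ad lib mice at ORM+1 h (adjusted p = 0.037, 6 of 6 mice below the home cage median) and rose by 0.43 in HFS TRF mice at ORM+12 h (adjusted p = 0.016, 6 of 6 mice above). In HFS TRF mice at ORM+12 h, Plcb3, a phospholipase C that makes inositol trisphosphate, fell by 0.71 (adjusted p = 0.043, 6 of 6 mice below), while it rose by 0.94 in NC ad lib mice at ORM+1 h (adjusted p = 0.00068, 6 of 6 mice above, with no overlap of the groups). Micu2, a regulator of the mitochondrial calcium channel, fell by 0.45 in HFS TRF mice at ORM+12 h (adjusted p = 0.046, 6 of 6 mice below). Plcg1, another phospholipase C, was the 1 gene of the list called between the times of day on all 3 diets (log2 fold changes -0.31, -0.31 and -0.56, adjusted p 0.0013, 0.0012 and 2.9e-08), and it was named after its values were seen.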

How the data were processed

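The authors trimmed reads with Trim Galore 0.6.7 and cutadapt 3.4, aligned them to GRCm39 with HISAT2 2.2.0 and counted them per gene with featureCounts (Subread 2.0.3), as the submitters' processing notes state. The deposited values are raw counts of 57010 genes in 71 mice, and they were used as deposited. Genes with at least 10 counts in total (30141) were fitted with edgeR 4.0.16 (R 4.3.3) in 1 model of 12 groups with TMM factors, the quasi-likelihood test and Benjamini-Hochberg adjustment within a comparison, at a threshold of 0.05. The procedure was tested on simulated data, where it recovered 164 of 200 genes changed with a fold of 2, with 17 false calls. The changed genes were well counted, were altered in the NC ad lib ORM+1 h mice only, and had the fitted spread without outlying mice. Recovery of smaller changes, or of genes with few counts, was not tested. Positions and exon lengths came from an annotation of GRCm39, promoters from RefSeq. Alternatives were the DESeq2 1.42.0 Wald test, DESeq2 size factors, at least 1 count (35816 genes), filterByExpr (21512 genes), a fit of the compared groups alone, a block for the replicate number, also within a task, an estimated fold change above 1.2 required beside the adjusted p, and each mouse left out. Leaving out 2 mice together and the nuclear RNAs were added after seeing the data, and the former is not among the 7 alternatives over which ranges are given. All 10 genes were named in every comparison, with, from the calcium list, the 3 genes of smallest adjusted p in each direction after training, and the 5 genes most like Ryr1 by correlation of log2 CPM (prior count 2), of which 1 is not reported here. The members and lists were chosen with earlier results of these data known. Proteins were not analysed here.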

Additional observations from a re-analysis of the deposited data

Results flagged for a closer look

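In each of 118 sets of values of 1 gene in 1 group, the highest and the lowest mouse were compared with the nearest other mouse by Dixon's ratio. Of these, 14 stood apart, where chance gives about 1 in 20 sets, or 5.9, if values are independent and normal. The values were CPM without a log and the sets share mice, so that rate may not hold here. The 2 sets of Ryr1 values that chose the genes were left out of these counts. In these 2 sets the highest value was that of HFS ad lib ORM+12 h replicate 2 (29.5 CPM), given as a description. Ryr1 stood high in NC ad lib HC zt15 replicate 4 (8.80 CPM) and low in HFS TRF HC zt3 replicate 4 (3.47 CPM). Ryr3 stood high in NC ad lib HC zt15 replicate 4 (79.6 CPM). Itpr2 stood high in HFS ad lib ORM+1 h replicate 2 (13.7 CPM) and HFS TRF ORM+12 h replicate 1 (14.0 CPM). Itpr3 stood high in HFS ad lib HC zt3 replicate 3 (1.02 CPM) and HFS ad lib ORM+1 h replicate 4 (0.919 CPM). Atp2a2 stood low in HFS TRF ORM+12 h replicate 4 (481.6 CPM). Atp2a3 stood high in NC ad lib HC zt3 replicate 1 (6.08 CPM), HFS ad lib ORM+1 h replicate 3 (8.93 CPM) and HFS TRF HC zt15 replicate 3 (8.85 CPM). Atp2b1 stood low in NC ad lib HC zt15 replicate 6 (369.3 CPM). Atp2b2 stood low in NC ad lib HC zt15 replicate 2 (322.5 CPM) and high in HFS TRF HC zt15 replicate 3 (451.2 CPM). The 14 values came from 12 mice, and NC ad lib HC zt15 replicate 4 and HFS TRF HC zt15 replicate 3 each stood apart for 2 genes.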

How the results depend on the processing

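Over 4632 values of a log2 fold change of the 10 genes under an alternative, 0 turned a call to the other direction, 37 lost a call, 18 gained one and 57 moved by more than a standard error without a call. These totals hold the step without 2 mice picked after seeing the data, which lost 1 call, gained 3 and moved 18 values. They also hold Ryr1 in the comparisons with the mice that chose the set, given as a description. DESeq2 size factors, at least 1 count and filterByExpr changed no call. The count of called genes at ORM+12 h was 0 on NC ad lib and HFS TRF together, without the HFS ad lib comparison that chose the set, and 1 with the replicate number as a block within a task. HFS ad lib against NC ad lib gave 0 calls, 1 with the DESeq2 Wald test and 0 to 1 with each mouse left out. HC zt15 against HC zt3 gave 7 calls over the 3 diets, 4 (HFS TRF HC zt3 replicate 2 left out) to 8 (NC ad lib HC zt15 replicate 4 left out) over the single mice, 7 with an estimated fold change above 1.2 required beside the adjusted p, and 6 to 10 under the other alternatives. The counts for ORM+1 h, HFS TRF against HFS ad lib and the interaction were 0 with each alternative and each mouse left out. With the replicate number as a simple block no call changed. Replicate numbers do not pair the mice: of 99 pairs of mice with the same number 17 correlated best with their own number, and the correlations ran from -0.69 to 0.71 (median 0.01). The cause of these changes was not tested. With 6 mice or fewer a group and 6 to 77 counts of Itpr3 and 4 to 495 of Atp2a3 per mouse, small differences in those genes were not detectable.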
